A study of Mus musculus with 6 samples.

Results

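The DNA replication genes followed here are 48 genes for the proteins that license origins, unwind DNA, copy it and supply its building blocks. They were chosen by gene symbol in the array's platform annotation, with the brightest probe set kept for a gene that had several. All 48 were measured, among 19937 genes in all. Their levels were compared between mouse embryonic stem (ES) cells with a FLAG-CTCFL vector and ES cells with a control vector.

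FLAG-CTCFL is a tagged form of mouse CTCFL (BORIS), a germ-cell paralog of the insulator protein CTCF. Both groups were ES cells cloned from 46C cells, which are male, of strain 129P2/OlaHsd, and carry GFP knocked in at Sox1. The first group carried the FLAG-CTCFL vector and the second the control vector, with 3 biological replicates each. Both were grown with 10% serum and constantly under 1 µg/ml puromycin. The labels do not say how many independent clones or transfections the replicates come from, so p-values measure the spread between these arrays. Total RNA of each replicate was read on a 1-colour Affymetrix Mouse Gene 1.0 ST array, and levels are given as log2 signal, on which a difference of 1 is a doubling. The number of arrays, 6, limits the precision.

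A chromosome is copied once per cell cycle. In G1 phase the origin recognition complex (ORC), Cdc6 and Cdt1 load the ring of Mcm2 to Mcm7 on DNA, and geminin later blocks a second loading. At the start of S phase Cdc45 and GINS join the ring to form the active helicase, polymerase alpha-primase starts each strand, and polymerases delta and epsilon extend it on the sliding clamp PCNA. Many of these genes are targets of E2F transcription factors, and ES cells, which cycle fast and have a short G1 phase, express them at high levels. In bulk RNA, fewer cells in S phase and less RNA per cell cannot be told apart.

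Ctcfl was read first, because it checks the labels: it was at 11.33, 11.22 and 11.24 in FLAG-CTCFL cells, against 7.70, 7.85 and 7.89 in control cells. Array medians over all probe sets lay between 7.92 and 7.99. Of 10 markers of pluripotent cells 6 fell and 0 rose, and of 8 trophoblast markers 5 rose and 1 fell. Of all 19937 genes 12.5% rose and 18.4% fell by the same rule, a limma adjusted p of at most 0.05. All 10 pluripotency markers lie above the median signal. In a fit of genes at or above it 51.5% were called, in either direction. The summed linear signal of the pluripotency markers was 48140 to 52039 in FLAG-CTCFL arrays and 61674 to 62006 in control arrays, and that of the trophoblast markers was 4373 to 5107 and 3139 to 3181. Krt8 and Krt18, the brightest trophoblast markers in FLAG-CTCFL cells, rose by 1.15 and 1.04 on the log2 scale and weigh most in that sum. Eomes (0.61), Gata3 (0.33) and Cdx2 (0.30) rose less, Tfap2c fell by 0.73, and Elf5 and Hand1 did not pass. Fibroblast, endoderm, neural and mesoderm markers had 1 to 2 members higher and 0 to 1 lower per list. Of the neural markers Nes (0.68) and Pax6 (0.32) rose and Map2 fell by 0.44. Mixl1 (0.31) and Kdr (0.15) of mesoderm, Dab2 (0.19) and Gata6 (0.14) of endoderm and Col1a1 (0.16) of fibroblasts rose. Thy1 of fibroblasts fell by 0.48 and Lama1 of endoderm by 0.28. The part of these shifts in the replication genes' levels was not tested. FLAG-CTCFL replicate 2 stood apart in its spread, with an SD of 1.41 over all probe sets against 1.44 to 1.47 on the other arrays.

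Replication genes differed between the groups in both directions, mostly by small amounts. Of the 48 genes, 8 were higher in FLAG-CTCFL cells, 9 were lower and 31 did not pass the threshold of 0.05 on limma's adjusted p. The share called, 35.4%, stood near the 30.9% of all 19937 genes, of which 12.5% were higher and 18.4% lower. The replication genes are bright: all 48 lay at or above the median signal of 8.24. In a fit restricted to genes at or above it, 19 of the 48 (39.6%) were called, beside 51.5% of the genes tested there. The median log2 fold change of the 48 genes was -0.00029, against 0.0037 over all genes and -0.02 over genes above the median signal. The fold changes of 24 genes were no larger than 0.1 either way, and those of 4 reached 0.3 (Pola1, Orc5, Pole2 and Fen1). The median size of change was 0.23 among the called replication genes and 0.26 among all called genes.

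The 3 arrays of one group lay wholly above or below those of the other for 22 of the 48 genes, beside 41.3% of all genes, and 16 of these 22 were among the 17 called. The exception among the called genes was Rpa3. The plot of fold changes by role shows that called and uncalled genes stood side by side in each role, except the licensing factors and the MCM proteins outside the ring, which held no called gene.

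**Figure D1:**
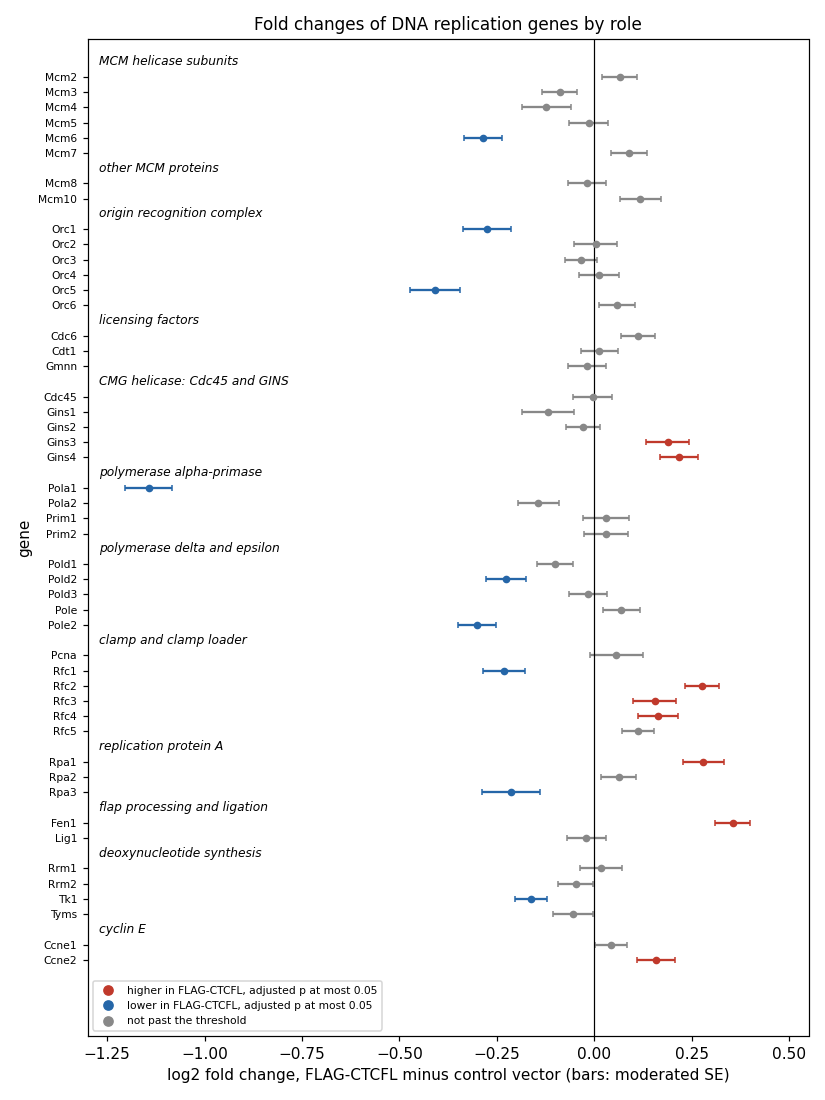
Log2 fold change (FLAG-CTCFL minus control vector, horizontal axis) of each of the 48 DNA replication genes, grouped by role down the page. Points are limma estimates, bars the moderated SE, red higher and blue lower at an adjusted p of at most 0.05, grey not past it. Pola1, at -1.14, lies far to the left of the other 47 genes, which lie between -0.41 and 0.36.

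Single arrays stood high or low for many of the genes at once. FLAG-CTCFL replicate 2 had the lowest signal of its group for 38 of the 48 genes and FLAG-CTCFL replicate 1 the highest for 41. The median deviation of the members from their group mean was 0.07 in FLAG-CTCFL replicate 1, -0.08 in replicate 2 and 0.0015 in replicate 3. In control arrays it was 0.0030, 0.01 and -0.02. Over all genes above the median signal the same arrays deviated by 0.04, -0.04 and 0.0041 in the FLAG-CTCFL group, in the same directions.

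**Figure D2:**
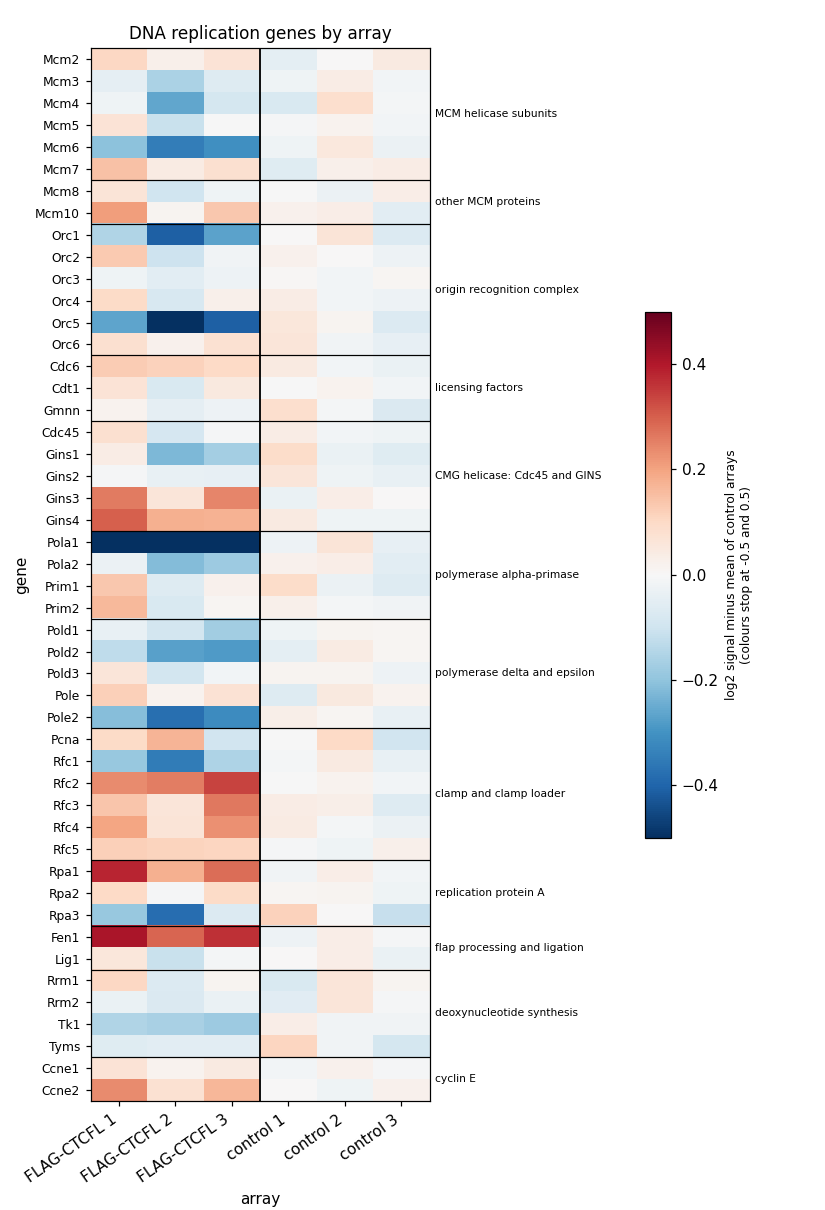
Log2 signal of each DNA replication gene on each array minus the mean of the control arrays, with genes by role down the page and arrays across, FLAG-CTCFL at left. Red is above and blue below the control mean. The column of FLAG-CTCFL replicate 2 is the bluest of its group, and Pola1 is beyond the colour scale on all 3 FLAG-CTCFL arrays.

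The count of raised genes depended on the scaling of the arrays and on single arrays. After quantile normalization 16 of the 48 genes were higher and 7 lower, beside 19.8% higher and 16.6% lower over all genes. Those shares include dim genes. A share for genes above the median signal alone was not taken in that fit, so an excess over equally bright genes was not tested. The members' median became 0.08, and that of all genes above the median signal moved from -0.02 to 0.04. All 8 raised genes and 7 of the 9 lowered ones were called in the same direction there. Without 1 array the number of raised genes was 4 when FLAG-CTCFL replicate 1, FLAG-CTCFL replicate 3 or control replicate 3 was left out, 5 without control replicate 1 or 2, and 9 without FLAG-CTCFL replicate 2. The number of lowered genes was 8 to 12 in the same fits.

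**Figure D3:**
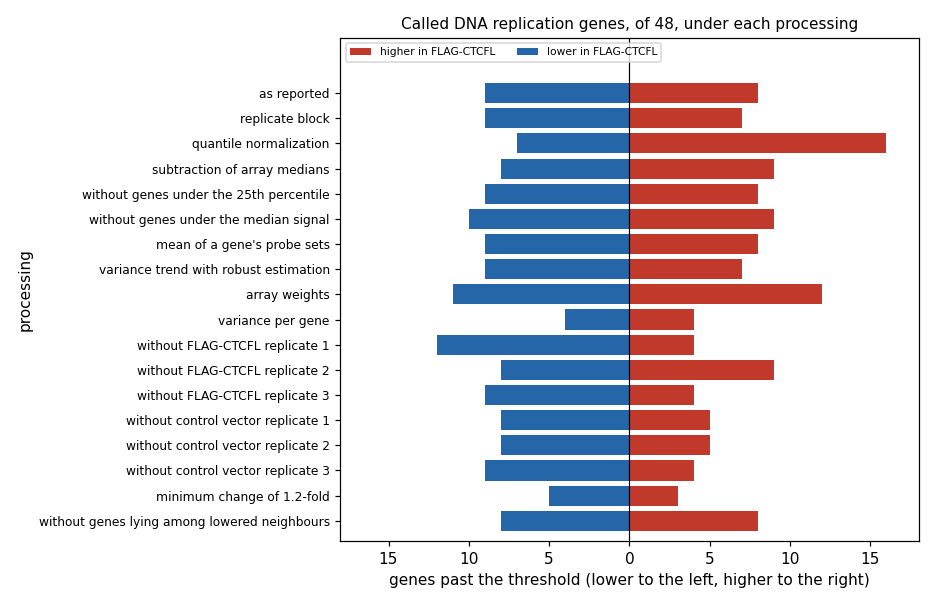
Number of the 48 DNA replication genes past the threshold under each processing: bars to the right count genes higher in FLAG-CTCFL cells and bars to the left genes that were lower. As reported there were 8 and 9; quantile normalization gave 16 and 7.

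Polymerase alpha-primase, which lays down the RNA-DNA primers, held the largest change of the list. Pola1, the catalytic subunit of polymerase alpha, was at 9.85, 9.60 and 9.78 in FLAG-CTCFL cells, against 10.86, 10.95 and 10.85 in control cells. Every FLAG-CTCFL array lay more than 0.9 below every control array. Its fall of 1.14 ± 0.06 on the log2 scale (SE, n = 3 per group; limma adjusted p = 1.53e-08) was a change of -54.7%, and it was between -1.20 and -1.07 under 15 other settings, all past the threshold. The accessory subunit Pola2 differed by -0.14 (adjusted p = 0.0606). It passed as lower among genes at or above the median signal (adjusted p = 0.0459), with array weights (-0.17, 0.000830) and without FLAG-CTCFL replicate 1 (-0.20, 0.00525). The primase subunits Prim1 and Prim2 differed by 0.03 each and did not pass. Within arrays, the signal of Pola1 relative to the mean of its 3 partners was lower by 1.12 in FLAG-CTCFL cells. An exact two-sided permutation test gave p = 0.1, the smallest that 3 against 3 arrays allow, for this and for 5 other such differences, chosen after their values were seen (adjusted p = 0.1 over the 6).

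Pola1 is the only X-linked gene of the list, and it was the 1 gene of the 48 that lay among lowered neighbours. Of the 20 nearest measured genes above the median signal, 10 on each side, 18 fell and 0 rose, and their median was -0.75. Pcyt1b, for a phosphatidylcholine synthesis enzyme, fell by 1.49 next to it, Pdk3, a pyruvate dehydrogenase kinase, by 1.05, and Nr0b1, a nuclear receptor of ES cells, by 0.99. Mageb4 (0.14, adjusted p = 0.100) and Fthl17a (0.07, adjusted p = 0.545) did not pass. For the other 47 genes the median of the neighbours lay between -0.15 and 0.12. Without Pola1, 8 of 47 genes were higher and 8 lower, with a median of 0.0033.

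**Figure D4:**
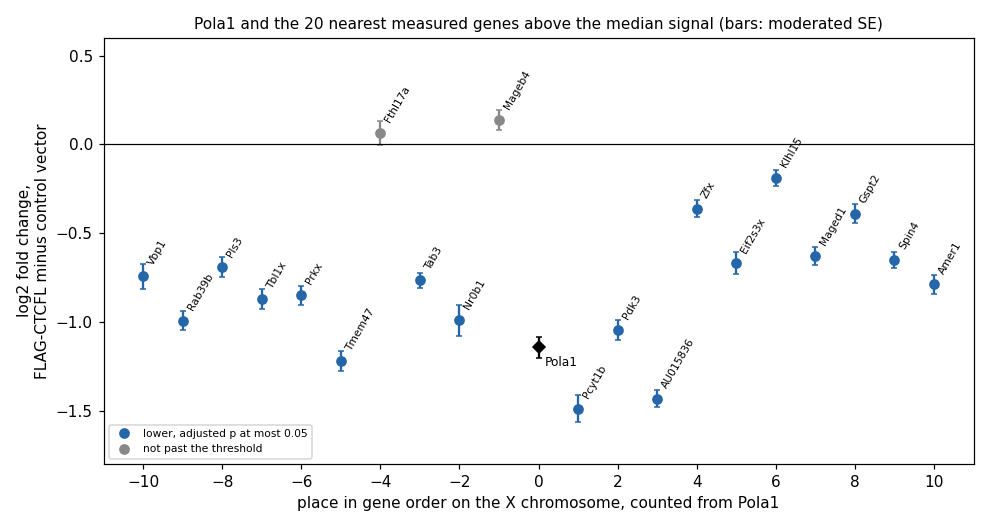
Log2 fold change (FLAG-CTCFL minus control vector) of Pola1 (diamond) and of the 10 nearest measured genes above the median signal on each side, in gene order along the X chromosome. Bars are the moderated SE, blue points lower at an adjusted p of at most 0.05, grey points not past it. All but 2 neighbours lie below 0.

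The origin recognition complex marks the sites where replication can start. Of its 6 subunits 2 were lower and 0 higher, beside 18.4% and 12.5% of all genes. Orc5, an ATP-binding subunit, was at 10.70, 10.41 and 10.56 in FLAG-CTCFL cells, against 11.02, 10.98 and 10.90 in control cells. The groups did not overlap, although the FLAG-CTCFL arrays spread more (SD 0.15 against 0.06). Orc5 fell by 0.41 ± 0.07 (limma adjusted p = 0.000279), the second largest change of the 48. Orc1, the subunit whose amount cycles with cell division, was at 10.50, 10.24 and 10.38 in FLAG-CTCFL cells, against 10.65, 10.71 and 10.58 in control cells. Its fall was 0.28 ± 0.06 (limma adjusted p = 0.00357). With a variance estimated for each gene alone, both missed the threshold (adjusted p = 0.0538 for Orc5 and 0.104 for Orc1). The other subunits did not pass: Orc2 differed by 0.0033, Orc3 by -0.03, Orc4 by 0.01 and Orc6 by 0.06, though Orc6 passed as higher after quantile normalization (0.14). Relative to the mean of the other 5 subunits on the same array, Orc5 was lower by 0.36.

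The licensing factors, which load the helicase, did not pass the test. Cdc6, the ATPase that acts with ORC, was at 9.19, 9.18 and 9.16 in FLAG-CTCFL cells, against 9.11, 9.05 and 9.03 in control cells. The arrays did not overlap, but the difference of 0.11 ± 0.04 missed the threshold (limma adjusted p = 0.0635). Cdc6 passed with array weights (0.10, adjusted p = 0.0148), with array medians subtracted (0.13, adjusted p = 0.0445) and with quantile normalization (0.19, adjusted p = 0.00155). Cdt1, its partner in loading, was at 10.93, 10.78 and 10.91 in FLAG-CTCFL cells, against 10.86, 10.88 and 10.85 in control cells. Gmnn, for geminin, the inhibitor of Cdt1, was at 8.78, 8.72 and 8.73 in FLAG-CTCFL cells, against 8.85, 8.75 and 8.69 in control cells. In both genes the groups overlapped, with differences of 0.01 ± 0.05 and -0.02 ± 0.05 (SE).

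Of the 6 subunits of the MCM ring, Mcm6 alone passed. Mcm6 was at 11.43, 11.29 and 11.33 in FLAG-CTCFL cells, against 11.61, 11.69 and 11.60 in control cells. All 3 FLAG-CTCFL arrays were below the controls, by 0.29 ± 0.05 on average (limma adjusted p = 0.000468), and this call held under 15 other settings. Mcm2 was at 12.29, 12.21 and 12.25 in FLAG-CTCFL cells, against 12.13, 12.19 and 12.23 in control cells, a difference of 0.07. Mcm3 was at 11.28, 11.17 and 11.26 in FLAG-CTCFL cells, against 11.30, 11.36 and 11.31 in control cells, a difference of -0.09.

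Both Mcm2 and Mcm3 missed the threshold; the groups overlapped for Mcm2 and did not for Mcm3. Mcm4 was at 11.65, 11.41 and 11.58 in FLAG-CTCFL cells, against 11.59, 11.75 and 11.66 in control cells (difference -0.12). Mcm5 was at 12.50, 12.33 and 12.43 in FLAG-CTCFL cells, against 12.43, 12.45 and 12.42 in control cells (difference -0.01). Mcm7 was at 12.19, 12.09 and 12.13 in FLAG-CTCFL cells, against 11.98, 12.07 and 12.08 in control cells (difference 0.09).

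Mcm4, Mcm5 and Mcm7 did not pass with the values as deposited, although the groups did not overlap for Mcm7; Mcm7 did after quantile normalization (0.15, adjusted p = 0.0139) and Mcm4 without FLAG-CTCFL replicate 1 (-0.17, adjusted p = 0.0450). Relative to the other 5 subunits on the same array, Mcm6 was lower by 0.27. The MCM proteins outside the ring, Mcm8 of DNA repair (-0.02) and the initiation factor Mcm10 (0.12), did not pass, but Mcm10 did after quantile normalization (0.20), with array weights (0.13) and without FLAG-CTCFL replicate 2 (0.17).

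Cdc45 and the GINS subunits turn the loaded ring into a working helicase. Gins4 was at 11.42, 11.30 and 11.30 in FLAG-CTCFL cells, against 11.17, 11.10 and 11.10 in control cells. The FLAG-CTCFL arrays were all higher, by 0.22 ± 0.05 (limma adjusted p = 0.00329), a rise below a minimum change of 1.2-fold. Gins3 was at 9.60, 9.41 and 9.59 in FLAG-CTCFL cells, against 9.31, 9.38 and 9.35 in control cells, a rise of 0.19 ± 0.05 (limma adjusted p = 0.0181). The lowest FLAG-CTCFL array of Gins3, replicate 2, was close to the controls, and the call was lost without FLAG-CTCFL replicate 1 (adjusted p = 0.0541) or 3 (0.0901), and without control replicate 1 (0.0735) or 3 (0.0552). With a variance per gene the Gins3 call was lost as well (adjusted p = 0.143). Gins1 (-0.12), Gins2 (-0.03) and Cdc45 (-0.0038) did not pass, but Gins1 passed as lower with array weights (-0.16, adjusted p = 0.00704) and without FLAG-CTCFL replicate 1 (-0.20, adjusted p = 0.0124). On the same arrays Gins4 was higher by 0.20 relative to the mean of the other 3 GINS subunits, and by 0.29 relative to Gins1 and Gins2 alone.

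The polymerases that extend the strands had 2 of 5 listed subunits lower and 0 higher, beside 18.4% and 12.5% of all genes. Pole2, the second subunit of polymerase epsilon, was at 10.52, 10.35 and 10.41 in FLAG-CTCFL cells, against 10.76, 10.74 and 10.69 in control cells. All FLAG-CTCFL arrays were lower, by 0.30 ± 0.05 (limma adjusted p = 0.000368), also under 15 other settings. Pold2, an accessory subunit of polymerase delta, was at 11.66, 11.52 and 11.50 in FLAG-CTCFL cells, against 11.74, 11.83 and 11.80 in control cells, a fall of 0.23 ± 0.05 (limma adjusted p = 0.00382, and 0.0688 with a variance per gene). The catalytic subunits did not pass, with -0.10 for Pold1 (adjusted p = 0.132) and 0.07 for Pole (adjusted p = 0.324), and neither did Pold3 (-0.02). Pold1 passed as lower without FLAG-CTCFL replicate 1 and with array weights, and Pole as higher after quantile normalization.

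The clamp loader, which opens PCNA and sets it on primed DNA, moved in opposite directions within 1 complex. Of its 5 subunits Rfc1, the large one, fell, while the small subunits Rfc2, Rfc3 and Rfc4 rose and Rfc5 stood just outside the threshold. Rfc1 was at 10.57, 10.41 and 10.60 in FLAG-CTCFL cells, against 10.75, 10.80 and 10.72 in control cells, a fall of 0.23 ± 0.05 (limma adjusted p = 0.00512, and 0.0908 with a variance per gene). Rfc2 was at 10.20, 10.22 and 10.30 in FLAG-CTCFL cells, against 9.96, 9.98 and 9.95 in control cells. This was a rise of 0.28 ± 0.04 (limma adjusted p = 0.000276), with a gap between the groups wider than the spread within either.

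Rfc4 was at 12.05, 11.92 and 12.08 in FLAG-CTCFL cells, against 11.89, 11.84 and 11.82 in control cells (0.16 ± 0.05, limma adjusted p = 0.0246). Rfc3 was at 9.82, 9.75 and 9.95 in FLAG-CTCFL cells, against 9.72, 9.71 and 9.62 in control cells (0.15 ± 0.05, limma adjusted p = 0.0481). Both calls were weak: Rfc3 lost its call in 9 of 15 other settings and Rfc4 in 5, among them the fits without FLAG-CTCFL replicate 1 (adjusted p = 0.0561 and 0.0562), without FLAG-CTCFL replicate 3 (0.234 and 0.123), without control replicate 2 (0.0875 and 0.0847) and without control replicate 3 (0.196 and 0.0979). Without control replicate 1 Rfc3 also lost its call (0.0711). Rfc5 was at 12.67, 12.66 and 12.65 in FLAG-CTCFL cells, against 12.54, 12.53 and 12.57 in control cells. Its arrays did not overlap, at 0.11 ± 0.04 (limma adjusted p = 0.0552), and it passed in 5 of 15 other settings. Relative to the mean of the 4 small subunits on the same array, Rfc1 was lower by 0.41. Pcna itself, the clamp, differed by 0.06 ± 0.07 (adjusted p = 0.619), and its second probe set by 0.05.

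**Figure D5:**
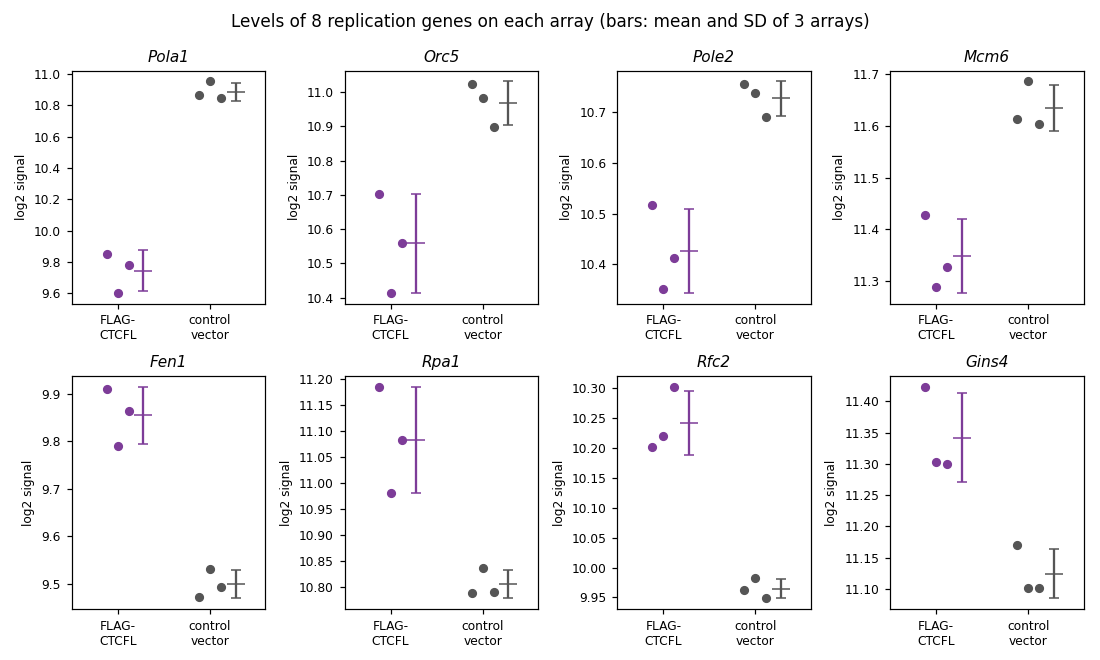
Log2 signal of 8 replication genes on each array, with FLAG-CTCFL arrays at left and control arrays at right of each panel and the vertical axis set for each gene. Points are arrays 1 to 3 from left to right, and bars the mean and SD of 3 arrays. The upper row holds the 4 largest falls and the lower row the 4 largest rises, and the groups do not overlap in any panel.

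Replication protein A coats single-stranded DNA as a trimer. Rpa1, its large subunit, was at 11.19, 10.98 and 11.08 in FLAG-CTCFL cells, against 10.79, 10.84 and 10.79 in control cells. The FLAG-CTCFL arrays were all higher, by 0.28 ± 0.05 (limma adjusted p = 0.00106, and 0.0512 with a variance per gene). Rpa2 did not pass (0.06), except after quantile normalization (0.12) and with array weights (0.09). Rpa3, the small subunit, was at 10.33, 10.14 and 10.45 in FLAG-CTCFL cells, against 10.63, 10.52 and 10.40 in control cells. Its groups overlapped, and the fall of 0.21 ± 0.07 was barely past the threshold (limma adjusted p = 0.0462). It was lost in 8 of 15 other settings, including those without FLAG-CTCFL replicate 1 (adjusted p = 0.0547) or 2 (0.145) and without control replicate 1 (0.202) or 2 (0.115), and in a fit over all named probe sets neither this probe set (adjusted p = 0.0571) nor a second, dimmer one (-0.09, adjusted p = 0.110) passed.

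Fen1, the nuclease that trims the flaps of Okazaki fragments, had the largest rise of the list. It was at 9.91, 9.79 and 9.86 in FLAG-CTCFL cells, against 9.47, 9.53 and 9.49 in control cells. The groups were well apart, with a rise of 0.36 ± 0.05 on the log2 scale, or 27.9% (limma adjusted p = 4.60e-05), that held in 15 other settings. Lig1, the ligase that seals the trimmed ends, differed by -0.02 ± 0.05.

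Genes that supply deoxynucleotides were near level. Tk1, thymidine kinase, was at 9.18, 9.17 and 9.15 in FLAG-CTCFL cells, against 9.36, 9.31 and 9.31 in control cells, a fall of 0.16 ± 0.04 (limma adjusted p = 0.00821). The difference was -0.19 with its second probe set and -0.08 after quantile normalization, where it was not past the threshold (adjusted p = 0.102). The ribonucleotide reductase subunits Rrm1 (0.02) and Rrm2 (-0.05) and thymidylate synthase, Tyms (-0.05), did not pass. Cyclin E, the partner of Cdk2 that drives entry into S phase, comes from a pair of genes. Ccne2 was at 9.53, 9.37 and 9.45 in FLAG-CTCFL cells, against 9.29, 9.27 and 9.31 in control cells, a rise of 0.16 ± 0.05 (limma adjusted p = 0.0228).

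The Ccne2 arrays did not overlap, but the call was lost without FLAG-CTCFL replicate 1 (adjusted p = 0.0708) or 3 (0.0732) and without control replicate 1 (0.0639), 2 (0.0931) or 3 (0.0509). With a variance per gene the Ccne2 call was lost too (adjusted p = 0.105). Ccne1 was at 11.68, 11.63 and 11.65 in FLAG-CTCFL cells, against 11.60, 11.63 and 11.61 in control cells. The groups overlapped at a difference of 0.04 ± 0.04, and it passed after quantile normalization alone of 15 other settings (0.13, adjusted p = 0.0161).

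Promoter windows of RefSeq genes on GRCm38.p6, 250 bases before to 50 after a gene's start, were available for 39 of the 48 genes. They are given because the list is known for E2F control. Those shown belong to the 4 genes that moved most in each direction, except Rfc2 and Gins4, which had no window. Windows were searched on both strands for the E2F-type word TTTCGCG, the word TTTGGCG and the word TTCCCGC, which can overlap each other across strands, and for CCAAT. An E2F-type word stood in 22 of the 39 windows (56.4%), beside 9.29% of 15562 measured genes with a window. CCAAT stood in 23 (59.0%) beside 38.3%. Over all 27025 genes with a window, measured or not, the shares were 6.80% and 37.9%. Among the replication genes an E2F-type word stood in 4 of 5 windows of raised genes, 4 of 9 of lowered genes and 14 of 25 of uncalled genes. A match is a description of letters only, with the first listed window taken for each gene.

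The windows of the lowered genes are all on the minus strand, at chrX:93632106-93632405 for Pola1, chr5:22550289-22550588 for Orc5, chr12:69228141-69228440 for Pole2 and chr1:128359656-128359955 for Mcm6. Those of the raised genes are on the minus strand at chr19:10204344-10204643 for Fen1 and chr11:75348334-75348633 for Rpa1. Capitals mark the E2F-type words and CCAAT, on either strand; the matches in Mcm6 include a pair that overlap. Pola1 and Mcm6 hold 3 E2F-type words each, Pole2 and Rpa1 hold 1 each, and the windows of Orc5 and Fen1 hold none of the words searched.
Pola1: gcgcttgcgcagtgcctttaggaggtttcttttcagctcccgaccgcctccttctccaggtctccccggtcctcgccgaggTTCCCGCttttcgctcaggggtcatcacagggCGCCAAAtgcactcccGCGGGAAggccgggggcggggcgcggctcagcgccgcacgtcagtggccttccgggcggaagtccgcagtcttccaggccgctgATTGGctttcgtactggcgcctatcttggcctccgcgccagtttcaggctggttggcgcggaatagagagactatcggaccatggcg
Orc5: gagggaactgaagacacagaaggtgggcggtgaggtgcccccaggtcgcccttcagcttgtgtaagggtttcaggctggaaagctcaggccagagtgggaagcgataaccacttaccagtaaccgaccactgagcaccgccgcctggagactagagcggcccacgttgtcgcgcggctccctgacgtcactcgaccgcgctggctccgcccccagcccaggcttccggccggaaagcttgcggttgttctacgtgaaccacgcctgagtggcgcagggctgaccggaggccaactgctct
Pole2: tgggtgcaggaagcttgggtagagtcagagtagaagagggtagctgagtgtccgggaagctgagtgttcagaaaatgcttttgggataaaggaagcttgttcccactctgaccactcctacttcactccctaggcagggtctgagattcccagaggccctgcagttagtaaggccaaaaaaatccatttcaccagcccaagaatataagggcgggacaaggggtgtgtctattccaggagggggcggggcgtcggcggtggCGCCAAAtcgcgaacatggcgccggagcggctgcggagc
Mcm6: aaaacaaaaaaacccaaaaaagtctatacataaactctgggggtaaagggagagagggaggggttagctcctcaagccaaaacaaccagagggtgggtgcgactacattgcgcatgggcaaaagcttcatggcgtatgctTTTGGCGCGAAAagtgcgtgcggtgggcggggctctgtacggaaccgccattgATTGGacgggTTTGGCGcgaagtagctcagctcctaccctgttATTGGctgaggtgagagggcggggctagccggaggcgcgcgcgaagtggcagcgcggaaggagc
Fen1: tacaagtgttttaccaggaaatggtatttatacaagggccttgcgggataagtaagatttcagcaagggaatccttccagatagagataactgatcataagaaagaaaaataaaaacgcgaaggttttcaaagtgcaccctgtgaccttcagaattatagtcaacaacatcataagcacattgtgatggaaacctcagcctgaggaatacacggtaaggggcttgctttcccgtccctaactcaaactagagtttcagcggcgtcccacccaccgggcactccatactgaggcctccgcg
Rpa1: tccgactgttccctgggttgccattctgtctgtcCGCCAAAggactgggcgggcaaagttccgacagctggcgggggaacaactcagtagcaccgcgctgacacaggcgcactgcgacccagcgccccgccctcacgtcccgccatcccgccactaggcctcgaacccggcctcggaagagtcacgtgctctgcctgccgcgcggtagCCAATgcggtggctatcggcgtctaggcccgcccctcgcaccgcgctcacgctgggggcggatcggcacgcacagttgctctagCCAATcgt
Lowered and raised genes were found both with and without E2F-type words: Mcm6 fell with 3 and Orc5 fell with 0, while Rpa1 rose with 1 and Fen1 with 0.

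Beyond the 48 genes, 6 lists of other replication pathway genes were read in the same fit. Of 123 measured genes 17 were higher and 35 lower, or 42.3% called, beside the 30.9% of all genes, and their median log2 fold change was -0.03. In the fit of genes at or above the median signal, which held 119 of them, 53 (44.5%) were called, against 51.5% of all genes there. After quantile normalization 39 of the 123 were higher and 31 lower, beside 19.8% higher and 16.6% lower over all genes. Here too no share was taken for genes above the median signal alone. Among other replication factors 7 of 30 were higher and 7 lower. Wdhd1, which ties polymerase alpha to the helicase, fell by 0.94 ± 0.05 (limma adjusted p = 7.51e-09), Rnaseh2b, a subunit of the enzyme that removes RNA from DNA, by 0.69, Primpol, a primase that restarts forks, by 0.69, and Ticrr (treslin), which brings Cdc45 to origins, by 0.58.

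Of fork protection and checkpoint genes 2 of 17 were higher and 6 lower. For this and the lists that follow, the shares over all genes were 12.5% higher and 18.4% lower. Etaa1, an activator of the ATR kinase (-0.47), Mms22l, which acts in fork recovery (-0.37), and the fork remodeller Zranb3 (-0.27) fell, and Cdc25a, the phosphatase that activates Cdk2, rose by 0.35. Of chromatin assembly genes 1 of 10 was higher and 3 were lower: Asf1b, a histone chaperone, rose by 0.33, and Supt16 of the FACT complex (-0.70), Uhrf1 (-0.21) and Chaf1b (-0.15) fell. Among other nucleotide metabolism genes 2 of 23 were higher and 7 lower, with falls in the nucleoside transporter Slc29a1 (-0.46), the CTP synthase Ctps2 (-0.44) and the purine synthesis enzymes Paics (-0.30) and Atic (-0.23).

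Of genes of E2F, RB and G1/S control 5 of 31 were higher and 9 lower, beside 12.5% higher and 18.4% lower over all genes. Rb1, the retinoblastoma protein that holds E2F in check, fell by 1.09 ± 0.05 (limma adjusted p = 3.83e-09), and Cdkn1b (p27), an inhibitor of cyclin E-Cdk2, by 0.93 ± 0.07 (limma adjusted p = 2.57e-07). Cyclin D1, Ccnd1 (-0.43), and the RB relative Rbl1 (-0.37) fell as well. The remaining lowered genes of this list were Cdk2 (-0.43), Cdkn1c (-0.32), E2f4 (-0.28), Tfdp1 (-0.24) and E2f1 (-0.18). The raised ones were Cdk6 (0.33), E2f6 (0.28), E2f2 (0.19) and the Cdk inhibitor genes Cdkn2d (0.29) and Cdkn2c (0.20). Of licensing turnover genes 0 of 12 were higher and 3 lower, the ubiquitin ligase genes Skp2 (-0.24), Cul1 (-0.20) and Cul4a (-0.17). Wdhd1, Rnaseh2b, Supt16, Rb1 and Cdkn1b lay, like Pola1, among lowered neighbours, the first 4 on chromosome 14 and Cdkn1b on chromosome 6. In all 8 of the 123 genes lay there, and 3 of them did not pass: E2f5 (0.10), Ccnd2 (-0.10) and Lin9 (-0.06). Outside such neighbourhoods 17 of 115 of these genes were higher and 30 lower, with a median of -0.02. The share called there was 40.9%, beside 30.9% of all genes and 51.5% in the fit of genes at or above the median signal.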

How the data were processed

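RNA of 6 mouse ES cell samples was read on Affymetrix Mouse Gene 1.0 ST arrays. The authors deposited log2 signals, 1 for each of 34760 probe sets on each array; the range, 5.73 to 14.56, shows the log2 scale. Their background correction and normalization are not given in the sources used. The platform annotation names 1 gene for 21640 probe sets, several for 1321 and none for 11799, and Entrez IDs matched 21553 to GRCm38.p6 symbols. With the probe set of highest mean per gene, 19937 genes were fitted, dim ones included. limma 3.58.1 (lmFit and eBayes, R 4.3.3) compared the groups, two-sided, with Benjamini-Hochberg adjustment over all genes and a threshold of 0.05.

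Fold changes are log2 differences of FLAG-CTCFL over control vector, with moderated SE. Values on every array were set to be given for called genes changed by at least 0.3 and for MCM ring, licensing and cyclin E genes; those of other called genes and of Rfc5 were added after their values were seen. From each other list up to 4 called genes with the smallest p are named. The other called genes of E2F, RB and G1/S control were added after their values were seen. Neighbours are the 10 measured genes on each side above the median signal, called lowered where their median is below -0.2. Members and lists were chosen with earlier results of these data known. The fit was also run on simulated data with few changed genes and noise drawn independently for each gene. Such data lack the shifts of whole arrays seen here, so they cannot give the error rate of these calls. Alternatives were a replicate block, quantile normalization, array medians subtracted, filters at the 25th percentile and at the median signal, a mean over probe sets, a robust variance trend, array weights, a variance per gene, a minimum change of 1.2-fold and each array left out. The labels name no batch. Exact permutation tests used scipy 1.17.1, and figures matplotlib 3.10.9 in Python 3.11.15.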

Additional observations from a re-analysis of the deposited data

How the results depend on the processing

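Under the 15 alternatives that kept the call rule, each run on each of the 48 genes, no called gene turned its direction. The call held in all of them for 3 of the 8 raised genes (Fen1, Rfc2 and Gins4) and 3 of the 9 lowered genes (Pola1, Pole2 and Mcm6), and 19 of the 31 uncalled genes passed in none. Ctcfl differed by 3.40 to 3.49 with 1 array left out. Counts over all genes were 6161 changed, 2496 higher and 3665 lower. After quantile normalization 3943 genes were higher and 3306 lower, among them 16 and 7 of the 48. Of the 123 other pathway genes 39 were then higher against 17, and 31 lower against 35. The median of the 48 was 0.0763, beside 0.0358 over genes above the median signal, and the cause was not tested. Array weights, which gave most weight to FLAG-CTCFL replicate 3, called 4195 genes higher and 5009 lower, and 32 and 40 of the 123. A variance per gene, with fewer degrees of freedom, called 3924 genes, 1458 of them higher, 8 of the 48 (4 higher and 4 lower) and 11 higher of the 123; of the 17 reported calls 7 were kept there, and the eighth gene was Rfc5. A minimum change of 1.2-fold left 3036 genes (987 higher, 2049 lower), 8 of the 48 (3 higher, 5 lower) and 27 of the 123 (6 higher, 21 lower). With 1 array left out, and so fewer samples, 13 to 17 of the 48 were called, 4 to 9 higher and 8 to 12 lower. Of the 123, 14 to 26 were then higher, the most without FLAG-CTCFL replicate 2. Same-numbered arrays deviated from their group means with correlations of -0.20 to 0.13 and did not all correlate best with their own number, so the numbers are not taken as pairs. With the replicate block 16 of the 48 were called, 7 higher and 9 lower, and 5979 genes in all.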
